A study of Mus musculus with 16 samples.

Results

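The genes described here are Car8, Atp6v1g3 and Adgrg3 in the mouse cerebellum, chosen by a measured pattern: their signal was higher on arrays of mice given nicotinamide riboside (NR) than on arrays of vehicle-treated mice, in both genotypes. On the Agilent microarray, 5 probes of 56605 non-control probes carried an accession of these 3 genes, namely 2 for Car8, 1 for Atp6v1g3 and 2 for Adgrg3. Each was printed as 1 spot. Of the 5, 4 passed the filter on dim probes and lie among the 37253 probes tested, and the remaining Adgrg3 probe was not well above background on any array. Because the treatment difference chose the genes, that difference is given below as a description without a test, while the comparisons between genotypes and the difference between the treatment responses of the genotypes were tested.

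The study profiled cerebellar cortex of 3.5-month-old mice labelled as male, on the strain background B6;129S4-Atmtm1Bal/J, and compared Atm-/- animals, which lack the ATM kinase in every cell, with wild-type (WT) littermates. From 6 weeks of age, animals drank water with 3.5 mg/ml (12 mM) of NR, a precursor of the coenzyme NAD+, or water alone as vehicle (veh), for 2 months. The 16 single-colour arrays form 4 groups of 4, named by genotype and treatment, for example WT NR. Each genotype had a slide of its own, with vehicle in the first row and NR in the second row of both, so the effect of genotype cannot be told apart from that of the slide, nor treatment from row.

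Car8 encodes a member of the carbonic anhydrase family that has lost the enzymatic activity. It is abundant in Purkinje cells, the output neurons of the cerebellar cortex, where it binds the inositol trisphosphate receptor Itpr1 and lowers its affinity for the ligand, and loss of the gene causes ataxia in mice and humans. Atp6v1g3 encodes an isoform of the G subunit in the peripheral stalk of the vacuolar proton pump (V-ATPase), best known from acid-secreting cells of the kidney, whereas the related isoforms Atp6v1g1 and Atp6v1g2 serve most tissues and neurons, respectively. Adgrg3, also called Gpr97, is an adhesion G protein-coupled receptor best known from granulocytes.

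Probe sequences were not used here. To place the genes, the 250 bases before the annotated start were taken from the RefSeq promoter table (build GRCm38.p6), which held a window for Atp6v1g3 and Adgrg3; Car8 is named only. Both windows lie on the plus strand, and the capitals mark each match to the CCAAT box (letters CCAAT, both strands), the motif that both windows held.
Atp6v1g3, chr1:138273488-138273737: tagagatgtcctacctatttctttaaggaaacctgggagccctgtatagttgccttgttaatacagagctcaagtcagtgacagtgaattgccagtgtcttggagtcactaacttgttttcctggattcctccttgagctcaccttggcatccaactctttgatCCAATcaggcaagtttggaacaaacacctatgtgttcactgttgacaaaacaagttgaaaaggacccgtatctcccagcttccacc
Adgrg3, chr8:95017442-95017691: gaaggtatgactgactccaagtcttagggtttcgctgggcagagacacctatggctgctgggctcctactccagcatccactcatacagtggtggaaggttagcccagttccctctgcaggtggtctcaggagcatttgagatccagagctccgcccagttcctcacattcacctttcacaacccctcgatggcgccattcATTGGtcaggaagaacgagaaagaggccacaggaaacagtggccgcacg
The CCAAT match began 86 bases before the start of Atp6v1g3 and, on the opposite strand, 49 bases before that of Adgrg3. Of the 32851 promoter windows in the table, 33.8% held this motif. The other motifs searched on both strands were the E-box CACGTG (6.02% of windows), the GC box GGGCGG (32.7%), the TATA box TATAAA (12.4%) and the cyclic AMP response motif TGACG (17.8%). Of these, a single GC box match 99 bases before the Adgrg3 start was found, and no other letters matched in either window.

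Car8 was the member with the largest treatment difference. Its brighter probe, A_51_P392005, read 14.05, 12.45, 14.36 and 13.47 on the WT veh arrays in log2 signal after quantile normalization, the scale of all levels below, with a mean of 13.58 ± 0.84 (SD, n = 4). The 4 WT NR arrays read 15.24, 14.97, 14.86 and 14.97, with a mean of 15.01 ± 0.16 (SD, n = 4). Every WT NR array was above every WT veh array, and the lowest NR array exceeded the highest veh array by 0.51.

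In Atm-/- mice the same Car8 probe read 14.24, 14.23, 13.48 and 14.24 on the veh arrays, a mean of 14.05 ± 0.38 (SD, n = 4). The Atm-/- NR arrays read 15.19, 15.09, 15.11 and 15.21, a mean of 15.15 ± 0.059 (SD, n = 4). Again no NR array overlapped a veh array, and the gap between the groups was 0.84. The NR minus veh difference was 1.43 in log2 signal (SE 0.31) in WT, or 2.69-fold, and 1.10 (SE 0.31) in Atm-/-, or 2.15-fold. Among the 37253 probes this was the 100th largest rise in WT and the 448th in Atm-/-, ranks that the choice of the gene by these contrasts favours and that support nothing further.

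The second Car8 probe, A_66_P126640, differed between the treatments by a like amount. It read 13.78, 12.65, 14.19 and 13.15 on WT veh arrays and 15.05, 14.82, 14.81 and 14.96 on WT NR arrays. In Atm-/- it read 14.001, 13.94, 13.47 and 13.93 under veh and 15.04, 15.03, 15.02 and 15.04 under NR. The difference was 1.47 (SE 0.24, 2.77-fold) in WT and 1.20 (SE 0.24, 2.29-fold) in Atm-/-, without overlap in either genotype. Over the 16 arrays the 2 Car8 probes correlated with r = 0.985, and with r = 0.969 once each group's mean was taken out, so they also followed each other from array to array within groups. The labels do not state that each array is a separate animal. Both probes measure the same RNA samples and are not independent replicates.

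The Car8 readings spread less under NR than under veh, which is no feature of Car8 alone: the SD was lower under NR for 60.3% of all probes in WT, 56.7% in Atm-/- and 35.1% in both, and for Adgrg3 it was 0.779 in WT veh and 0.147 in WT NR. The SD of the brighter probe was 0.839 in WT veh against 0.161 in WT NR, and 0.376 in Atm-/- veh against 0.059 in Atm-/- NR. With scaling to each array's 75th percentile in place of quantile normalization the 4 SDs were 0.821, 0.138, 0.398 and 0.034. In the deposited processed signal, before any normalization between arrays, this probe ran from 6879 to 27223 in WT veh, 27267 to 38439 in WT NR, 10873 to 21463 in Atm-/- veh and 28741 to 41714 in Atm-/- NR. No spot of any array carried the saturation flag, and the difference in spread was not tested.

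Atp6v1g3, the V-ATPase stalk isoform, had its larger mean difference in Atm-/-, whereas Car8 had its larger one in WT. For neither gene was a difference between the responses of the genotypes detectable, as given below. Probe A_55_P2145759 read 7.22, 6.996, 8.03 and 7.55 on the WT veh arrays (mean 7.45 ± 0.45, SD, n = 4) and 8.49, 8.23, 8.01 and 8.16 on the WT NR arrays (mean 8.22 ± 0.20, SD, n = 4). The WT groups overlapped by a single pair, since WT veh 3 at 8.03 exceeded WT NR 3 at 8.01, and NR was higher in 15 of 16 pairs of arrays. In Atm-/- the probe read 7.33, 7.58, 7.21 and 7.83 under veh (mean 7.49 ± 0.27, SD, n = 4) and 8.74, 8.22, 8.05 and 8.85 under NR (mean 8.47 ± 0.39, SD, n = 4), with no overlap and a gap of 0.23. The NR minus veh difference was 0.77 (SE 0.23, 1.71-fold) in WT and 0.98 (SE 0.23, 1.97-fold) in Atm-/-. In the deposited processed signal, before normalization between arrays, the Atm-/- groups overlapped, from 162 to 262 under veh and from 211 to 459 under NR.

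Adgrg3, the adhesion receptor, was measured by probe A_51_P247694. It read 9.11, 9.68, 10.96 and 10.07 on the WT veh arrays (mean 9.95 ± 0.78, SD, n = 4) and 10.96, 10.83, 10.98 and 10.66 on the WT NR arrays (mean 10.86 ± 0.15, SD, n = 4). Here the WT groups overlapped, and WT veh 3 alone lay within the NR range. The Atm-/- veh arrays read 9.76, 10.26, 10.46 and 10.62 (mean 10.28 ± 0.37, SD, n = 4), all below the Atm-/- NR arrays at 11.27, 10.74, 10.88 and 11.32 (mean 11.05 ± 0.29, SD, n = 4), with a gap of 0.12. In the deposited processed signal the Atm-/- groups overlapped here too, from 847 to 1809 under veh and from 1543 to 2723 under NR. The NR minus veh difference was 0.91 (SE 0.31, 1.87-fold) in WT and 0.78 (SE 0.31, 1.71-fold) in Atm-/-. The other Adgrg3 probe, A_52_P397401, stayed between 2.23 and 2.82 over all 16 arrays and was not well above background on any of them, so Adgrg3 rests on a single measured probe.

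**Figure D1:**
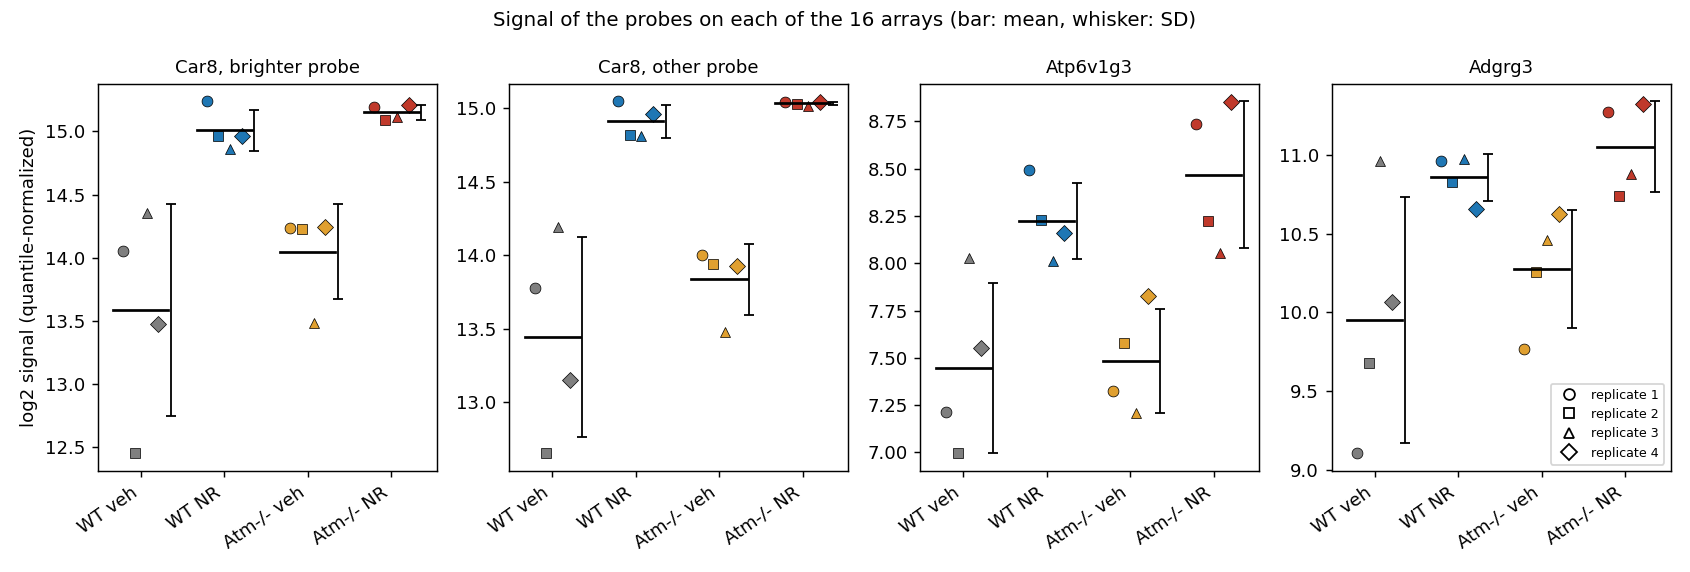
Quantile-normalized log2 signal (vertical axis) of the 4 kept probes on each of the 16 arrays, by group (horizontal axis); symbols give the replicate number, horizontal bars the group mean and whiskers the SD. For both Car8 probes all NR arrays lie above all veh arrays, while for Atp6v1g3 and Adgrg3 the array WT veh 3 reaches into the NR range.

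Over both genotypes, all 8 veh arrays lay below all 8 NR arrays for each Car8 probe. For Atp6v1g3 and Adgrg3, 7 of the 8 veh arrays did, and WT veh 3 was the exception for both, exceeding 1 of the 8 NR arrays for Atp6v1g3 and 4 of the 8 for Adgrg3. WT veh 3 also had the highest number of probes well above background of all arrays, 42559. Without it, the NR minus veh difference in WT was 1.24 for Adgrg3, 0.97 for Atp6v1g3 and 1.68 for Car8. These were the highest values with 1 array left out. The lowest were 0.62 for Adgrg3, 0.62 for Atp6v1g3 and 1.05 for Car8 by its brighter probe. For scale, the 4 NR arrays exceeded the 4 veh arrays for 1.59% of all probes in WT, 11.1% in Atm-/- and 0.8%, or 298 probes, in both genotypes. These shares come from the contrasts that chose the genes, and nothing is read from the members' place in them.

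Genotype dependence was tested, although the choice of the genes bears on it. The rule asked for a higher signal under NR in both genotypes, and the difference between responses is built from those same contrasts. A gene that responded in a single genotype could not be chosen, so a lack of difference is favoured in advance. The comparisons of genotypes within a treatment use the same arrays, though the rule set no sign for them. For all 4 probes the group means stood in the same order, with WT veh lowest, then Atm-/- veh, then WT NR and Atm-/- NR highest. The neighbours within a treatment did not differ beyond their spread. Under veh, Car8 was 0.47 higher in Atm-/- than in WT by the brighter probe (adjusted p = 0.504) and 0.39 by the other (adjusted p = 0.474), Adgrg3 was 0.32 higher (adjusted p = 0.649), and Atp6v1g3 was 0.04 higher (adjusted p = 0.952, all limma with Benjamini-Hochberg adjustment over 37253 probes). Of all probes, 0.0537% passed in this comparison, which is 20 probes.

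Under NR the genotypes lay closer together for Car8 and Adgrg3. The Atm-/- minus WT difference was 0.14 for the brighter Car8 probe, 0.12 for the other, 0.24 for Atp6v1g3 and 0.19 for Adgrg3, each with an adjusted p of 1 in limma. Here too 0.0537% of all probes passed, and none of the members was among them.

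The NR response of Atm-/- minus that of WT was -0.32 for the brighter Car8 probe (95% interval -1.27 to 0.62, adjusted p = 0.905 in limma) and -0.27 for the other (-1.01 to 0.47, adjusted p = 0.897 in limma). For Adgrg3 it was -0.13 (-1.06 to 0.80, adjusted p = 0.965 in limma). Atp6v1g3 was the single member with a larger response in Atm-/-, by 0.21 (-0.49 to 0.90, adjusted p = 0.918 in limma). With 4 arrays per group the intervals reach from -1.27 to 0.90 over the 4 probes, so a difference between the responses was not detectable at this precision, which does not show that the responses are alike. Of all probes, 0% passed this test at an adjusted p under 0.05, and 1962 had an unadjusted p under 0.05.

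**Figure D2:**
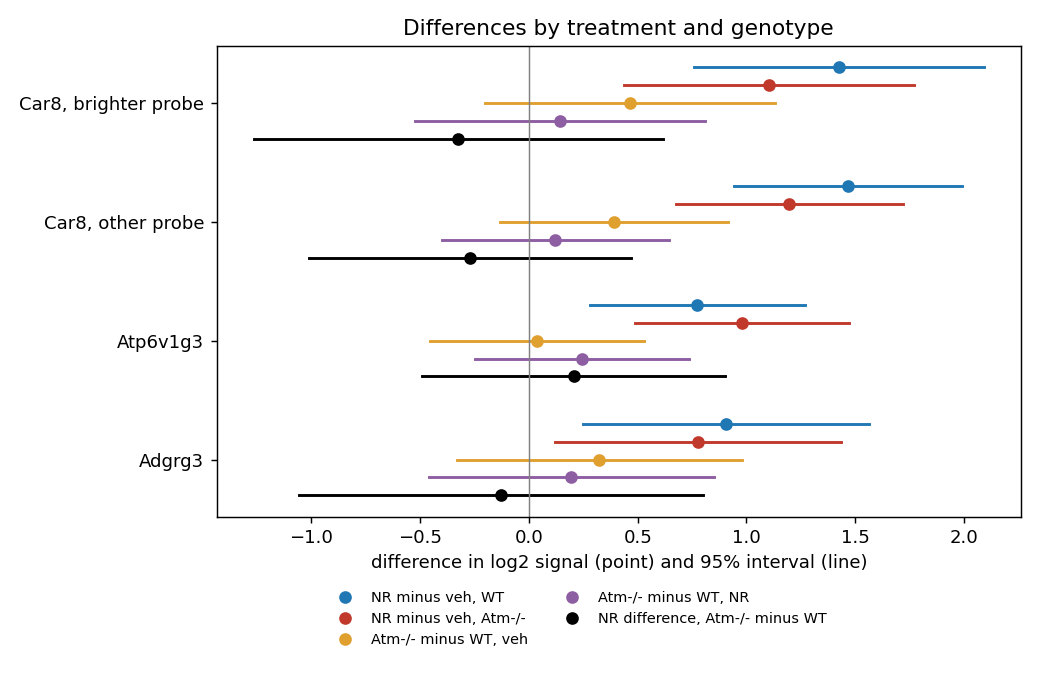
Differences in log2 signal (horizontal axis) with 95% intervals for the 4 kept probes (vertical axis), by contrast. The NR minus veh differences, which chose the genes, lie between 0.77 and 1.47, while every interval of the genotype comparisons and of the difference between responses includes 0.

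The members also followed one another over the 16 arrays. Atp6v1g3 correlated with the brighter Car8 probe with r = 0.870 and with Adgrg3 with r = 0.874, and Adgrg3 with Car8 with r = 0.712. Since all 3 were chosen for the same treatment difference, the group means alone give a positive value. With the group means taken out the correlations were 0.629 for Atp6v1g3 and Car8, 0.736 for Atp6v1g3 and Adgrg3 and 0.238 for Adgrg3 and Car8. The points share the array's labelling, scan and normalization, and these values are descriptive.

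**Figure D3:**
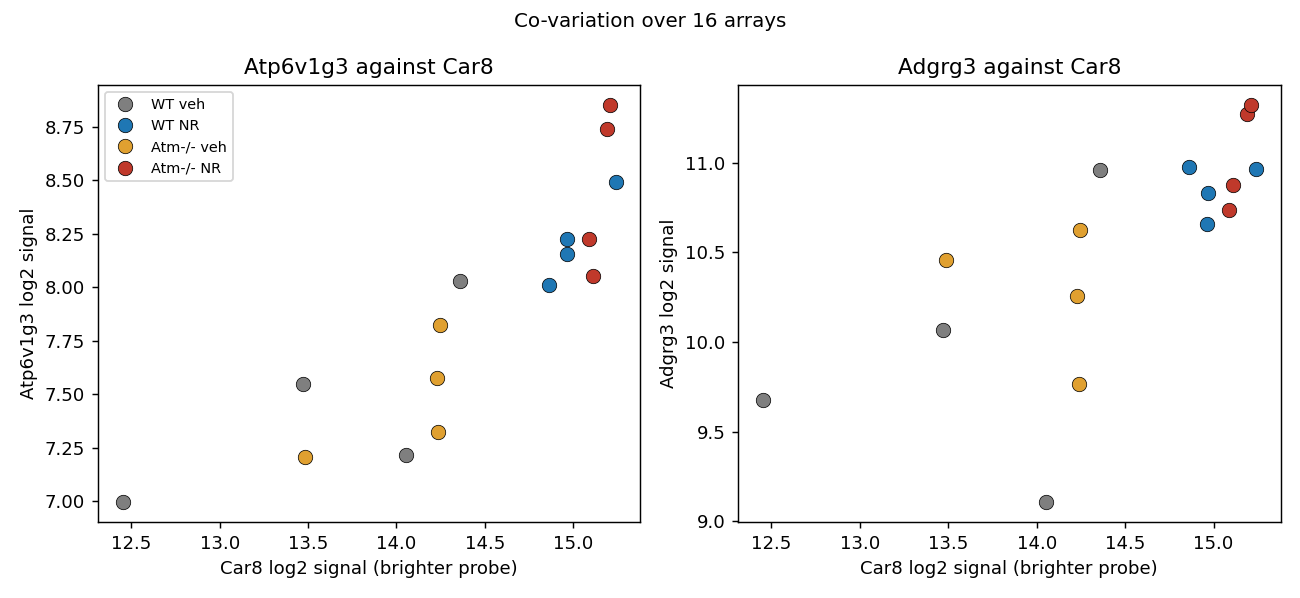
Log2 signal of Atp6v1g3 (left) and Adgrg3 (right) against that of Car8, 1 point per array, coloured by group. The NR arrays sit at the upper right in both panels, and among the veh arrays WT veh 3 is highest for all 3 genes.

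By a fixed rule, the 5 genes whose pattern over the 16 arrays was most like each member's were listed out of 16736 named genes. For Car8 these were 4930412C18Rik (r = 0.931), Egf (0.874), Gm31711 (0.872), Atp6v1g3 (0.870) and Rtp2 (0.864). For Atp6v1g3 they were 4930455G09Rik (r = 0.971), Gm31711 (0.948), Snrnp35 (0.935), Rnf214 (0.931) and Septin1 (0.928). For Adgrg3 they were Pgc (r = 0.964), Spatc1 (0.962), Vgll1 (0.960), Madcam1 (0.941) and Icosl (0.939). The uncharacterized transcript Gm31711 stood on the lists of both Car8 and Atp6v1g3, and Atp6v1g3 itself was among the 5 of Car8. After removal of group means the values of the genes nearest to each member were 0.746 for 4930412C18Rik with Car8, 0.922 for 4930455G09Rik with Atp6v1g3 and 0.942 for Pgc with Adgrg3. The other genes listed for Car8 then had 0.551 (Egf), 0.509 (Gm31711), 0.629 (Atp6v1g3) and 0.609 (Rtp2). For Atp6v1g3 the others ran from 0.812 to 0.844 and for Adgrg3 from 0.863 to 0.916. These genes were picked for the highest r over the same arrays, so the values with and without group means are raised by the choice and are descriptive.

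Genes other than the members were tested for NR against veh over both genotypes, where 10.8% of all probes passed at an adjusted p under 0.05 in limma, against 9.04% in Atm-/- alone and 0% in WT alone, where 2838 probes had an unadjusted p under 0.05. Where a gene had several kept probes, the brightest one stood for it. The median difference over all 16737 named genes was 0.01. The highest difference was 0.43 among the other carbonic anhydrases, 0.17 among the other V-ATPase subunits and 0.49 among the other adhesion receptors, against 1.26, 0.88 and 0.84 for Car8, Atp6v1g3 and Adgrg3, which were chosen for theirs.

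Of 15 other carbonic anhydrase genes, 13 were measured and none passed in either direction over both genotypes, against 10.8% of all probes. Their median difference was -0.12. Car2, the enzyme abundant in oligodendrocytes, differed by 0.20 (adjusted p = 0.33 in limma), and the 2 other family members that lack the enzymatic activity, Car10 and Car11, differed by -0.15 (adjusted p = 0.123) and -0.15 (adjusted p = 0.239 in limma). In Atm-/- alone Car1, an enzyme of red blood cells, rose by 0.68 (adjusted p = 0.0456 in limma) and was called in 2 of the 16 fits that left out 1 array.

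Itpr1, the receptor that Car8 binds, differed by 0.08 (adjusted p = 0.447 in limma) by its brightest probe and by -0.14 and -0.09 by the other 2, none of which passed. Of 24 genes of inositol trisphosphate receptor and Purkinje calcium signalling, 23 were measured, 1 rose and 1 fell over both genotypes, with a median of -0.08. Over all probes 10.8% passed in this comparison. Stim1, the calcium sensor of the endoplasmic reticulum, rose by 0.23 (adjusted p = 0.0317 in limma) by its brightest probe, whereas its other 2 probes differed by 0.02 and 0.13 without passing, and its call held in 8 of the 16 fits that left out 1 array. Gna11, a G protein subunit that couples to phospholipase C, fell by 0.24 (adjusted p = 0.00951 in limma). In Atm-/- alone Gnaq, the related subunit that carries the signal of the metabotropic glutamate receptor in Purkinje cells, also rose, by 0.39 (adjusted p = 0.0336 in limma), with the call held in 10 of the 16 fits that left out 1 array, and it did not pass over both genotypes (0.19, adjusted p = 0.114 in limma).

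Of 24 other V-ATPase subunit genes, 21 were measured, 1 rose and 4 fell over both genotypes, with a median of -0.08. Over all probes 10.8% passed in this comparison, 2020 higher and 2015 lower. All 5, by their brightest probes, encode parts of the membrane-bound V0 sector, of which 9 genes were measured. Whether the sectors differ was not tested. Atp6v0b fell by 0.35 (adjusted p = 0.0205), Atp6v0c by 0.32 (adjusted p = 0.0171) and Atp6v0d1 by 0.26 (adjusted p = 0.0122 in limma), and these 3 passed in all 16 fits that left out 1 array. The other Atp6v0c probe fell by 0.22 without passing (adjusted p = 0.0778 in limma).

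Within the same sector Atp6v0a1, an a subunit isoform abundant in neurons, fell by 0.16 by its brightest probe (adjusted p = 0.0366 in limma) but rose by 0.40 by its dimmer one (adjusted p = 0.043 in limma), so the probes of this gene disagree. Atp6v0a2, an a subunit isoform, rose by 0.17 (adjusted p = 0.0361 in limma), with 0.27 by its other probe (adjusted p = 0.0222 in limma). With 1 array left out, the calls of the brightest probes held in 5 of 16 fits for Atp6v0a1 and in 7 of 16 for Atp6v0a2. Of the 10 genes of the cytosolic V1 sector, to which Atp6v1g3 belongs, none passed over both genotypes by the brightest probe. The neuronal G isoform Atp6v1g2 differed by -0.23 (adjusted p = 0.0826 in limma) and the ubiquitous Atp6v1g1 by 0.02 (adjusted p = 0.92). The other Atp6v1g2 probe differed by -0.23 over both genotypes (adjusted p = 0.0608 in limma). In Atm-/- alone that probe fell by 0.37 and passed (adjusted p = 0.0432 in limma). The summed signal of the 21 subunits ran from 19.49 to 19.58 in log2 in Atm-/- veh and from 19.42 to 19.47 in Atm-/- NR, without overlap, and from 19.42 to 19.55 and 19.32 to 19.49 in the WT groups, which overlapped. Such a separation was not particular to these genes. The summed adhesion receptor signal also separated in Atm-/-, upward, from 17.407 to 17.509 under veh and from 17.51 to 17.528 under NR. For scale, all 4 NR arrays exceeded all 4 veh arrays in Atm-/- for 11.1% of all probes.

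Of 29 other adhesion receptor genes, 20 were measured, 1 rose and 2 fell over both genotypes, with a median of 0.02. Over all probes 10.8% passed in this comparison. Adgrg6, known for its role in Schwann cell myelination, rose by 0.49 (adjusted p = 0.0321 in limma). Celsr2 fell by 0.44 (adjusted p = 0.00954) and Celsr3 by 0.37 (adjusted p = 0.0294 in limma), both cadherin-type receptors of neuronal wiring. Leaving out 1 array kept the call in all 16 fits for Celsr2 and in 10 of 16 for Adgrg6 and Celsr3 each. The other probes of Celsr2 differed by -0.22 and -0.05, and the other Celsr3 probe by 1.0 without passing (adjusted p = 0.15 in limma). Adgrg1, the member of the same subfamily best known from brain, differed by 0.07 (adjusted p = 0.754 in limma), and Adgrg5 did not pass the filter on dim probes.

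**Figure D4:**
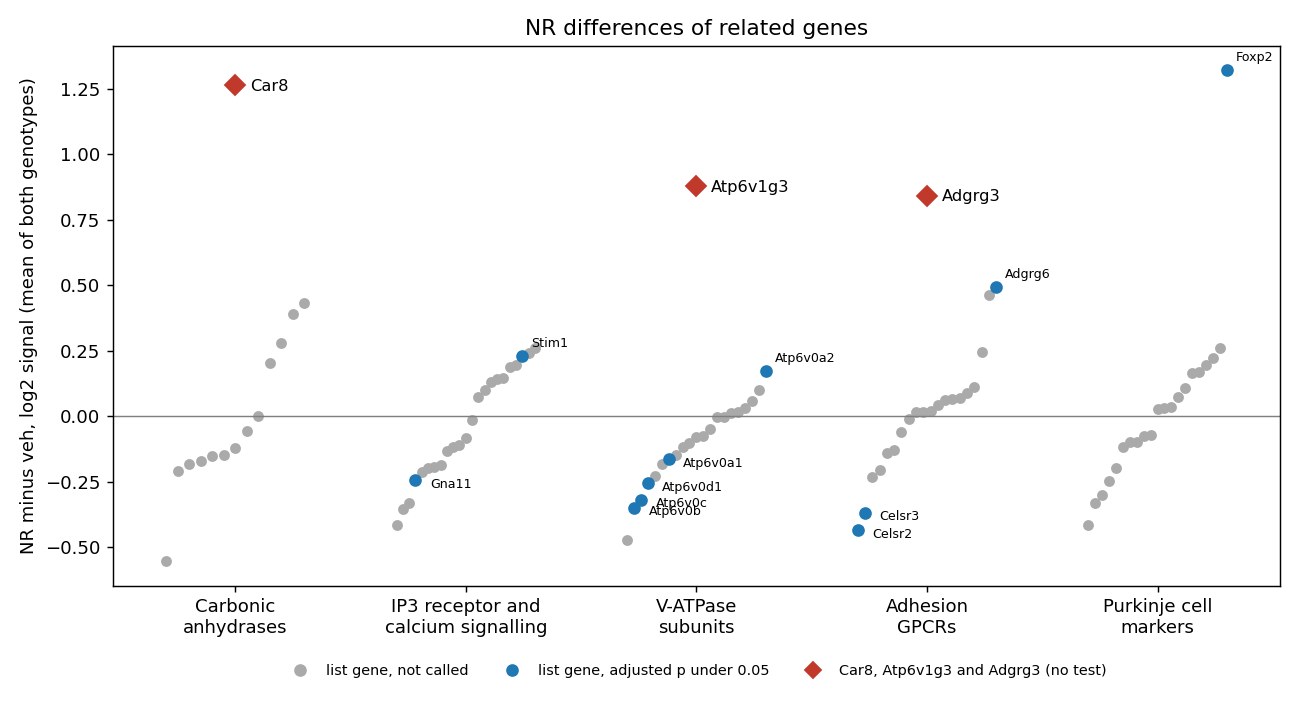
NR minus veh difference in log2 signal, averaged over both genotypes (vertical axis), for each measured gene of 5 lists (horizontal axis); blue points passed at an adjusted p under 0.05 and red diamonds are the 3 chosen genes, which were not tested. Foxp2 among the Purkinje cell markers, at 1.32, is the sole list gene above the diamonds.

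Levels in bulk tissue do not separate a change in RNA per cell from a change in the number of cells that carry it, so cell type markers are set beside the members. The defining markers of the labelled tissue were present: all 21 Purkinje cell markers and all 10 granule cell markers were measured. Of the Purkinje cell markers, 1 rose and none fell over both genotypes, with a median of 0.03. Over all probes 10.8% passed in this comparison, so nothing is read from this count. Pcp2 (-0.07, adjusted p = 0.654 in limma) and Calb1 (0.03, adjusted p = 0.915 in limma), which mark these cells, did not pass. The one that rose was Foxp2, a transcription factor of Purkinje cells, by 1.32 (adjusted p = 0.0385 in limma), and it was called in 6 of the 16 fits that left out 1 array, where the adjusted p ran from 0.0263 to 0.0775. The summed Purkinje signal overlapped between veh and NR in both genotypes, from 20.47 to 20.89 in WT veh and 20.64 to 20.84 in WT NR, and from 20.59 to 20.84 in Atm-/- veh and 20.67 to 20.81 in Atm-/- NR. Of the granule cell markers, none passed over both genotypes, against 10.8% of all probes.

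For Adgrg3, markers of granulocytes were examined. Of 20, 13 were measured and none passed over both genotypes, against 10.8% of all probes. Their summed signal overlapped between veh and NR, from 15.95 to 16.80 against 16.16 to 16.96 in WT and from 16.26 to 17.21 against 15.82 to 16.61 in Atm-/-. That sum was nearly all Csf3r, whose mean log2 signal was 16.38 against 10.15 for S100a9, the next brightest marker. The sum therefore says little about the other markers. Ly6g, Ngp, Retnlg, Cxcr2 and Epx were not measured above the filter. S100a8 and S100a9, abundant proteins of neutrophils, differed by 0.02 (adjusted p = 0.987) and 0.29 (adjusted p = 0.809 in limma). No gene of the 10 lists passed in either genotype comparison, where 0.0537% of all probes passed in each, or in the difference between responses, where 0% did. With shares so low, nothing is read from this about the lists.

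Some arrays stood apart from their groups. WT veh 4 had a summed choroid plexus signal of 18.32 in log2 against 12.71 to 14.11 on the other WT veh arrays. Without WT veh 4 the NR minus veh difference in WT was 1.39 for Car8, 0.81 for Atp6v1g3 and 0.94 for Adgrg3. Markers of red blood cells (6 of 9 measured) and of brainstem and deep nuclei (5 of 11 measured), tissues that a dissection can include, had none passing over both genotypes. Over all probes 10.8% passed in this comparison. The brainstem and deep nuclei markers had a median difference of 0.39, against 0.01 for all named genes. Slc17a6, a glutamate transporter of deep nuclei, differed by 2.76 without passing (adjusted p = 0.142 in limma). Their summed signal overlapped between veh and NR, from 11.20 to 13.53 against 11.49 to 14.06 in WT and from 10.93 to 13.07 against 11.34 to 13.37 in Atm-/-. The part of this in the members' differences was not tested. On 4 arrays the female transcript Xist was well above background while Y-linked genes were not, against the label of male: Atm-/- NR 4, Atm-/- veh 3 and arrays 1 and 4 of WT NR. Without these 4 the difference was 1.33 in WT and 0.89 in Atm-/- for Car8, 0.67 and 0.76 for Atp6v1g3, and 0.95 and 0.75 for Adgrg3. Of the 2 Atm probes, 1 (A_66_P114939) was lower on every Atm-/- array, at 7.70 to 8.10, than on every WT array, at 8.51 to 9.04, while the other overlapped between the genotypes, and their place relative to the disrupted part of the gene is not given in the sources used here. On Atm-/- NR arrays 34945 to 37817 probes were well above background, all fewer than the 39134 to 41905 on Atm-/- veh arrays, and the part of this in the members' differences was not tested.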

How the data were processed

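RNA of 16 cerebellar samples was hybridised in a single colour. The deposited scanner files hold the intensity of each spot as background-subtracted processed signal from Feature Extraction 12.0.3.1, and the deposited series table holds a score per spot, the authors' z-score of quantile-normalized log signal, used here as an alternative. Accessions were named through RefSeq (GRCm38.p6), which matched 58.3% of 56605 probes. Control spots (3671 of 62976) and outlier-flagged spots were left out, log2 intensity was quantile-normalized, and a probe was kept if some group had it well above background throughout its 4 arrays, less 788 with missing values. Means of the 4 groups were fitted to 37253 probes in limma 3.58.1 (R 4.3.3), with 12 residual degrees of freedom and Benjamini-Hochberg adjustment at 0.05. P-values measure the spread between these arrays, which may be in part technical, and whose number limits the precision. Where a gene had several kept probes, the brightest represented it.

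Car8, Atp6v1g3 and Adgrg3 and the 10 gene lists were chosen with earlier results of these data known. Named were the members with every probe, Atm, list genes that passed, fixed partner genes and the 5 genes most correlated with each member. The list genes and markers, the separation of arrays and the processed signals described for the members are summaries without further tests. The alternatives tried were scaling to the 75th percentile, normexp background correction (offset 50), the z-scores, no filter or detection on all 16 arrays, a replicate block, fits of the compared arrays alone, omission of each array or of the 4 arrays without Y-linked signal, and averaging of a gene's probes. The fit was tested on simulated data.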

Additional observations from a re-analysis of the deposited data

Results flagged for a closer look

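Within the Atm-/- veh group, array 3 lay far below the other 3 for both Car8 probes, at 13.48 by the brighter and 13.47 by the other. Its distance from the nearest array was 0.979 and 0.857 of the group's whole range, which is past Dixon's critical value at the 95% level. These are 2 of 16 combinations of probe and group examined, chance flags about 1 in 20, and both probes read the same RNA. The same array had the highest summed red blood cell signal of its group, 19.95 in log2 against 17.74 to 18.49, and is 1 of the 4 arrays without Y-linked signal. Without it the NR minus veh difference of Car8 in Atm-/- was 0.91 by the brighter probe. For Atp6v1g3 and Adgrg3 no array was set apart in this way. The part of the red blood cell signal in the Car8 reading was not tested.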

How the results depend on the processing

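The NR minus veh differences of Car8, Atp6v1g3 and Adgrg3 kept their sign and moved by less than the spread between arrays under every alternative run, and no genotype comparison or difference between responses of these genes passed under any. Leaving out each array in turn, the difference between responses ran from -0.58 to 0.054 for Car8 and from -0.47 to 0.15 for Adgrg3, turning sign without WT veh 2 and without WT veh 1, respectively, and the genotype difference of Atp6v1g3 under veh ran from -0.11 to 0.23, turning sign without WT veh 1, WT veh 2 or Atm-/- veh 4. Counts of probes called depended far more on single arrays: 0 to 1 for NR in WT, 862 (without Atm-/- veh 1) to 4405 for NR in Atm-/-, 2265 (without Atm-/- veh 1) to 4695 for NR over both, 12 to 41 for genotype under veh and 12 to 24 under NR. The V-ATPase genes lower in Atm-/- alone numbered 4, but 1 to 4 with an array left out (1 without Atm-/- veh 1 or 4 or Atm-/- NR 2, 3 or 4), 2 with 75th percentile scaling and 0 without the 4 arrays lacking Y-linked signal. Without those 4 arrays, 6 probes passed for NR in WT, 438 in Atm-/-, 1862 over both, 10 for genotype under NR and 2 for the difference between responses. With only the compared arrays fitted, 7 passed for genotype under veh. Averaging a gene's probes turned Atp6v0a1 to 0.13 in Atm-/- and 0.12 over both, and Celsr3 to 0.041 and 0.32, since the probes of each disagree. The causes of the other shifts were not tested.

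Same-numbered arrays mostly did not deviate together: 18 of 24 correlations between groups were at most 0.1, and they ran from -0.328 to 0.367. Arrays of unlike number were not set beside them, so whether the numbers pair the samples is not settled. A fit with the replicate number as a block called 3140 probes for NR in Atm-/-; with 1 array per number in each group it cannot move a difference between groups.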
